A study of Rattus norvegicus with 4 samples.

Results

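The genes described here encode the sensors that cells use to recognise unusual RNA, in the cytosol and in endosomes, together with their closest partners. They are Ddx58 (the protein RIG-I), Ifih1 (MDA5), Dhx58 (LGP2), Mavs, Trim25, Tlr3, Tlr7, Eif2ak2 (PKR), Zbp1 and Adar. They were chosen by name, as the array probes that carry one of these 10 gene names, which gave 13 of the 41012 gene probes on the array. Ddx58, Dhx58 and Eif2ak2 had 2 probes each and the other genes had 1. The probes came from a study of rat cortical neurons in which the mRNA cap methyltransferase CMTR1 was knocked down, measured on 4 single-colour Agilent arrays. Primary neurons were taken from the cortices of Sprague Dawley embryos of both genders at E18.5. On day 2 in vitro one group received lentivirus with a control shRNA (shCTL) and the other lentivirus with an shRNA against Cmtr1 (shCM1), and total RNA was taken on day 7 (n = 2 arrays per group). All cultures therefore carried a lentivirus and an shRNA, and no uninfected culture was among the samples. No source used here gives the promoter or the target sequence of either shRNA, so a response to less CMTR1 and an off-target response to the hairpin cannot be told apart.

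CMTR1 methylates the ribose next to the cap of a new mRNA, which helps the cell to tell its own mRNA from foreign RNA. RIG-I and MDA5 are cytosolic helicases that bind RNA with an unmethylated or uncapped 5′ end and long double-stranded RNA, respectively, and signal through the mitochondrial adaptor MAVS to type I interferon genes. TLR3 and TLR7 read double-stranded and single-stranded RNA in endosomes, PKR halts translation when it binds double-stranded RNA, ZBP1 binds left-handed nucleic acid, and ADAR edits double-stranded RNA so that it is seen less. Many of these genes are themselves induced by interferon.

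Most of the values below rest on 1 probe of 60 bases per gene, so several probes are printed here, 5′ to 3′ in lower case, as the scanner files give them, with their rn4 coordinates from the same files. The Ddx58 probe at transcript base 2635 lies at chr5:57598985-57599044 on the minus strand and the Ifih1 probe at chr3:44551104-44551163, also minus. They are shown because RIG-I and MDA5 are the main cytosolic receptors.
Ddx58: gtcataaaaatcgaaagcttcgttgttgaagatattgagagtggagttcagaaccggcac
Ifih1: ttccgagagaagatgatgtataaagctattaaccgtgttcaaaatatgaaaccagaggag

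The next pair reads different parts of the Dhx58 transcript, from base 425 and from base 976, and gave different results. The first lies at chr10:89640366-89640425 and the second spans 3134 bases of the minus strand, chr10:89635162-89638295, so its 60 bases come from more than 1 exon.
Dhx58 base 425: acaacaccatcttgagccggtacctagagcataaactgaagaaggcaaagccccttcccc
Dhx58 base 976: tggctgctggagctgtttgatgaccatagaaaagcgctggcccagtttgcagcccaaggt

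Tlr7 and Zbp1 had the highest differences among the 13 probes and were the only ones not well above background on every array. The Tlr7 probe lies at chrX:47356167-47356226 on the plus strand and the Zbp1 probe at chr3:164081005-164081064 on the minus strand.
Tlr7: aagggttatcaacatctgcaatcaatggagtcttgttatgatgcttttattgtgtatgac
Zbp1: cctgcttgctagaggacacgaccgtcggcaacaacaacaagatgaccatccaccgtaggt

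The Eif2ak2 probe at transcript base 1363 maps to chr6_random:121026-123381, a stretch of chromosome 6 with no fixed place in rn4, and crosses an intron. The other Eif2ak2 probe, at base 3216, has no rn4 position in the files.
Eif2ak2 base 1363: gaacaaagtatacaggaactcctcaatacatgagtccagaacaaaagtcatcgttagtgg

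The probes printed were judged likely to lie in coding sequence. The others, Trim25 and Tlr3 among them, are given by position alone, which does not place them outside coding sequence. The Ddx58 probe at base 3417 lies at chr5:57598203-57598262, Mavs at chr3:118952866-118952925, Tlr3 at chr16:50126045-50126104, Trim25 at chr10:77488215-77488274 and Adar at chr2:181952243-181952551. The annotation of the build used by the files was not used here, so exon and UTR positions are not given.

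Across the arrays, 84.0% to 90.4% of gene probes were well above background by the software's own test, and the 75th percentile of the signal ran from 596.3 to 754.5. A level below is the log2 of a probe's signal minus the log2 of its array's 75th percentile, and a difference is the shCM1 level minus the shCTL level. Every SE given is from the limma fit without a block, also where the p-value beside it is from the fit with the block. The replicate 1 arrays shared a slide, as did the replicate 2 arrays, so each slide gives its own difference. All 18 neuron marker probes were well above background on every array. Cmtr1 itself had signals of 242.6 and 208.5 in shCTL and 54.1 and 64.6 in shCM1, which is 27.7% of control (log2 difference -1.85, SE 0.22). Its adjusted p from limma was 1.65e-06 with the slide as a block and 0.99993 without.

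Of the 13 sensor probes, none passed the test without a block, in which limma called 0 of the 36700 tested probes (0%) and 1110 had an unadjusted p under 0.05. With the slide as a block, 1 sensor probe passed, Trim25, which fell, beside 5.9% of all probes. By direction the background was 3.2% called higher and 2.69% called lower. The sensors moved in both directions. Within both slides 6 probes were higher in shCM1 (Ddx58 at base 2635, Dhx58 at base 425, Tlr3, Tlr7, Zbp1 and Adar), beside 44.2% of all probes. Another 4 were lower within both slides (Ifih1, Trim25 and both Eif2ak2 probes), beside 22.6%, and 3 went opposite ways (Ddx58 at base 3417, Dhx58 at base 976 and Mavs), beside 33.2%. The median difference of the 13 was 0.13, with -0.03 on slide 1 and 0.25 on slide 2, while all tested probes had a median of 0.08 (0.08 and 0.07). No common direction of the sensors was therefore measured, and the values stand gene by gene. In RNA from a whole culture, fewer or more cells of a type and less or more RNA per cell cannot be told apart.

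**Figure D1:**
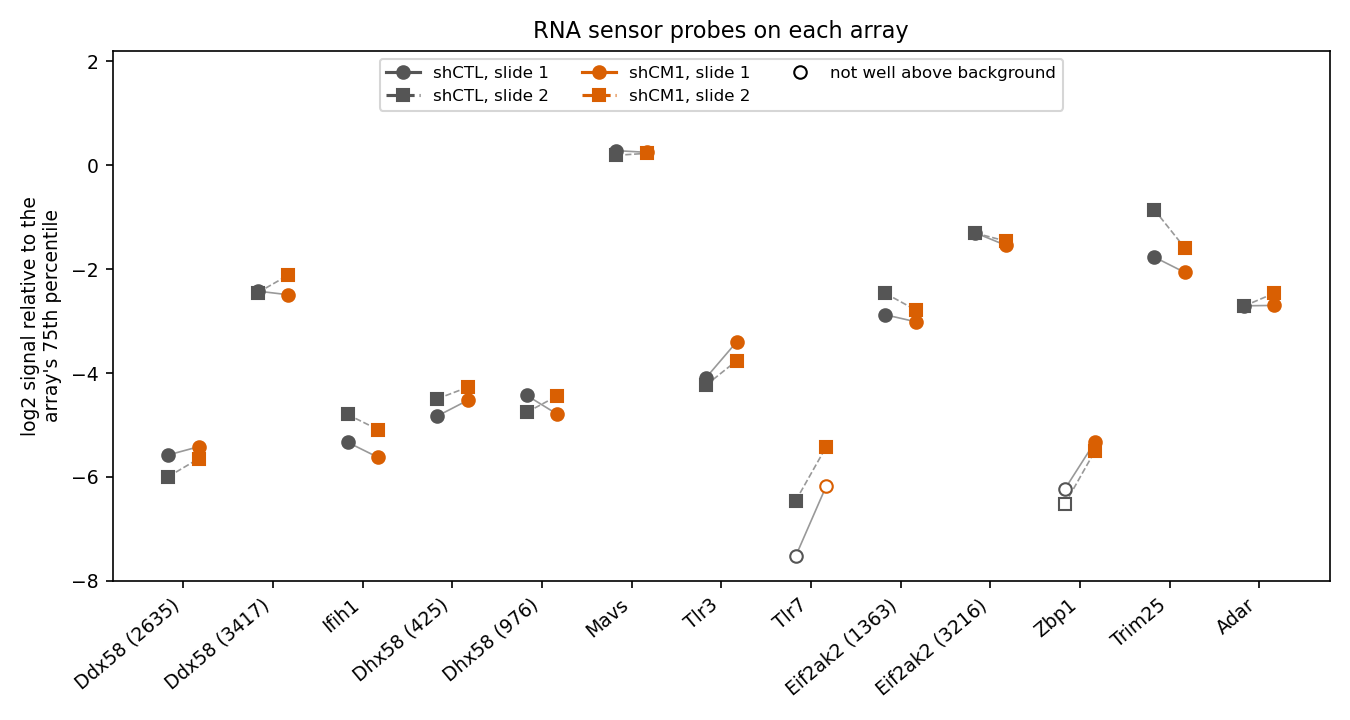
Level of each RNA sensor probe on each of the 4 arrays (vertical axis, log2 signal relative to the array's 75th percentile), with shCTL grey and shCM1 orange, slide 1 as circles and slide 2 as squares, lines joining the arrays of a slide, and open symbols for values not well above background. Mavs sits above 0 on every array, Tlr7 and Zbp1 have open symbols, and the lines of Trim25 slope down on both slides.

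Ddx58 encodes RIG-I, the receptor for RNA with an exposed triphosphate or unmethylated cap. Its probe at base 2635 was dim but well above background throughout, with levels of -5.58 and -5.99 in shCTL and -5.42 and -5.65 in shCM1. The shCTL array of slide 1 lay between the shCM1 arrays, so the groups overlapped. The difference was 0.25 (SE 0.37), from 0.16 on slide 1 and 0.35 on slide 2, with an adjusted p of 0.672 from limma with the slide as a block. Leaving out shCTL replicate 2 left 0.04 and leaving out shCTL replicate 1 left 0.46. The probe at base 3417 was also well above background throughout, with levels of -2.42 and -2.45 in shCTL and -2.49 and -2.12 in shCM1. Here the lowest and the highest array were both shCM1. Its difference was 0.13 (SE 0.21), from -0.07 and 0.34 on the slides, and it was -0.06 without shCM1 replicate 2. Tested probes of like brightness, meaning within 0.5 log2 units of mean level, had median differences of 0.25 and 0.12, which is where these probes lay. With quantile normalization the probe at base 2635 was at -0.01 and the probe at base 3417 at 0.02.

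Ifih1 encodes MDA5, the receptor for long double-stranded RNA. Its levels were -5.33 and -4.80 in shCTL and -5.62 and -5.09 in shCM1, from signals of 16.2, 27.1, 12.1 and 21.9 in that order. On each slide shCM1 lay below shCTL by the same amount, -0.29, while slide 2 lay 0.53 above slide 1 in both groups, so the groups overlapped. The SE was 0.37 without a block, and the adjusted p from limma with the slide as a block was 0.547. Leaving out 1 array, which sets the slides against each other in part, left -0.02 without shCTL replicate 2 or shCM1 replicate 1 and -0.56 without shCTL replicate 1 or shCM1 replicate 2. Probes of like brightness had a median of 0.24, in the other direction. Ifih1 was at -0.54 with quantile normalization (adjusted p with the slide as a block in limma 0.301), -0.54 with cyclic loess and -0.07 with normexp background correction.

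Dhx58 encodes LGP2, a helicase of the same family without a signalling domain that tunes MDA5 and RIG-I. At base 425 the levels were -4.83 and -4.50 in shCTL and -4.53 and -4.27 in shCM1. Each shCM1 array lay above the shCTL array of its slide, and the groups overlapped. The difference was 0.26 (SE 0.28), beside a median of 0.22 for probes of like brightness, and it was 0.10 without shCTL replicate 1 and 0.14 without shCM1 replicate 2. At base 976 the levels were -4.43 and -4.76 in shCTL and -4.79 and -4.44 in shCM1. The slides disagreed there, with -0.36 on slide 1 and 0.31 on slide 2, which gave -0.02 (SE 0.29). Without shCTL replicate 1 it was 0.14 and without shCM1 replicate 1 it was 0.15. The adjusted p values from limma with the slide as a block were 0.492 and 0.964. With quantile normalization the probes were at 0.04 and -0.23. So no direction for Dhx58 was shared by its probes.

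Mavs, the mitochondrial adaptor that RIG-I and MDA5 signal through, was well above background on every array and varied little. Its signals were 791 and 860 in shCTL and 707 and 870 in shCM1, and its levels 0.28 and 0.19 in shCTL and 0.25 and 0.23 in shCM1. Both shCM1 levels lay between the shCTL levels. The difference was 0.00 (SE 0.15), from -0.03 and 0.04 on the slides, with an adjusted p of 0.993 from limma with the slide as a block. The 5 scalings tried gave values between -0.02 and 0.01.

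Trim25 encodes a ubiquitin ligase known as a cofactor of RIG-I activation. Its signals were 191 and 416 in shCTL and 142 and 247 in shCM1, and its levels -1.77 and -0.86 in shCTL and -2.07 and -1.59 in shCM1. Each shCM1 array lay below the shCTL array of its slide, but shCTL on slide 1 lay below shCM1 on slide 2, so the groups overlapped. The difference was -0.52 (SE 0.35), or 70.0% of control, from -0.30 on slide 1 and -0.73 on slide 2. The adjusted p from limma was 0.0299 with the slide as a block and 0.99993 without a block. The slides differed by more than the groups did, with shCTL of slide 2 at 0.91 above shCTL of slide 1. Leaving out shCTL replicate 2 left -0.06 and leaving out shCTL replicate 1 left -0.97, while leaving out shCM1 replicate 1 or 2 left -0.28 and -0.75. With the slide as a block, limma's adjusted p was 0.0245 with quantile normalization and 0.0491 with cyclic loess. It was 0.0720 with normexp, 0.145 with no filter on dim probes and 0.260 without the intensity trend, so the call was lost there.

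Tlr3, the endosomal receptor for double-stranded RNA, had signals of 38.3 and 40.1 in shCTL and 56.3 and 54.7 in shCM1. Its levels were -4.09 and -4.23 in shCTL and -3.40 and -3.76 in shCM1. Both shCM1 arrays lay above both shCTL arrays. Among the sensors 4 probes were apart in this direction (Tlr3, Tlr7, Zbp1 and Adar), beside 21.8% of all probes, and 1 was apart in the other (Eif2ak2 at base 3216), beside 10% of all probes. The Tlr3 difference was 0.58 (SE 0.24), or 149% of control, from 0.69 and 0.47 on the slides. The adjusted p from limma with the slide as a block was 0.0679, above the threshold of 0.05. Probes of like brightness had a median of 0.19, and Tlr3 was at 0.39 with quantile normalization and 0.28 with normexp.

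Tlr7, the endosomal receptor for single-stranded RNA, lay close to background. Its signals were 3.55 and 8.59 in shCTL and 8.24 and 17.4 in shCM1, and neither array of slide 1 was well above background. The software's error on the signal was 57.3% on the shCTL array of slide 1 and 13.3% on the shCM1 array of slide 2. Levels were -7.52 and -6.46 in shCTL and -6.18 and -5.42 in shCM1. Both shCM1 arrays lay above both shCTL arrays, and on slide 2 both groups lay above their slide 1 arrays. The difference was 1.19 (SE 0.58), from 1.35 on slide 1 and 1.04 on slide 2, with an adjusted p of 0.101 from limma with the slide as a block. The slide 1 value sets 2 arrays not well above background against each other, so 1.04 is the only difference measured well above background on both sides. Over the left-out arrays the value ran from 0.66 without shCTL replicate 1 to 1.72 without shCTL replicate 2. Like-bright probes had a median of 0.34, with 0.45 on slide 1 and 0.24 on slide 2. Tlr7 was at 0.85 with quantile normalization and 0.17 with normexp, which adds an offset of 50 to every signal.

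Eif2ak2 encodes PKR, the kinase that phosphorylates the translation factor eIF2 in the presence of double-stranded RNA. At base 1363 its levels were -2.88 and -2.47 in shCTL and -3.01 and -2.79 in shCM1. The groups overlapped, with shCM1 lower on each slide, by -0.13 and -0.32. At base 3216 the levels were -1.30 and -1.31 in shCTL and -1.54 and -1.46 in shCM1, so both shCM1 arrays lay below both shCTL arrays. The differences were -0.23 (SE 0.23) and -0.20 (SE 0.16), or 85.4% and 87.3% of control. At base 1363 the value was -0.02 without shCTL replicate 2 and -0.43 without shCTL replicate 1, while at base 3216 it stayed between -0.24 and -0.16 over the left-out arrays. Their adjusted p values from limma with the slide as a block were 0.360 and 0.341. Like-bright probes had medians of 0.14 and 0.08, and with quantile normalization the probes were at -0.37 and -0.27.

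Zbp1 encodes the sensor that binds left-handed nucleic acid and can start necroptosis. Its signals were 8.64 and 8.18 in shCTL and 14.9 and 16.5 in shCM1. Neither shCTL array was well above background and both shCM1 arrays were, so the shCTL level is uncertain and the probe entered the test through shCM1. Measured levels were -6.24 and -6.53 in shCTL and -5.32 and -5.49 in shCM1, with no overlap. Under 75th percentile scaling the probe was 1.91-fold higher in shCM1 (0.93 in log2) when each shCTL array was given a floor. For each shCTL array this takes the higher of its own level and the array's lowest level of any probe well above background. On slide 2 the shCTL level of -6.53 lay above that lowest level, -6.82, so a value not well above background was used there. The software's error on the shCTL signals was 28.3% and 23.0%. The 1.91-fold value is therefore not a minimum, and quantile normalization and normexp, given below, put the measured difference under it. The measured difference was 0.98 (SE 0.37), from 0.92 and 1.04 on the slides. Its adjusted p from limma was 0.102 with the slide as a block, and since the probe was tested only because shCM1 was high, no support is drawn from that p. It was at 0.69 with quantile normalization and 0.18 with normexp, and like-bright probes had a median of 0.28.

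Adar encodes the enzyme that turns adenosine into inosine in double-stranded RNA, a mark that lowers sensing by MDA5, PKR and ZBP1. Its levels were -2.71 and -2.71 in shCTL and -2.70 and -2.46 in shCM1. Both shCM1 arrays lay above both shCTL arrays, but on slide 1 by only 0.01. The difference was 0.13 (SE 0.19), with 0.25 on slide 2 and 0.01 without shCM1 replicate 2, an adjusted p of 0.621 from limma with the slide as a block and a median of 0.14 for like-bright probes. With quantile normalization it was -0.0021. Another probe, filed under an Ensembl transcript name and tied to Adar through its accession, lay outside the naming rule. Its levels were 1.11 and 0.67 in shCTL and 0.92 and 0.68 in shCM1, with a difference of -0.09 (SE 0.21). No direction for Adar was shared by both.

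**Figure D2:**
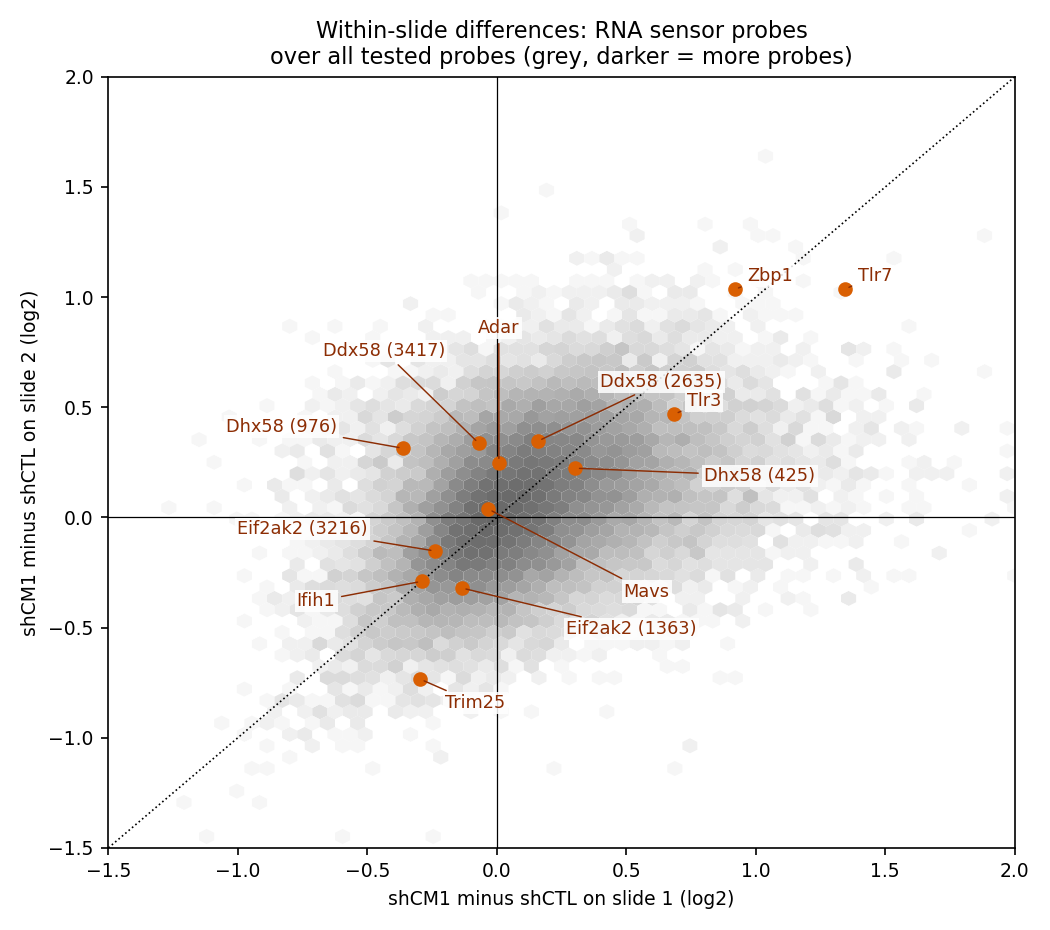
Difference of shCM1 minus shCTL on slide 1 (horizontal, log2) against slide 2 (vertical, log2), for the 13 RNA sensor probes in orange over all 36700 tested probes in grey, with equality as a dotted line. Tlr7 (1.35, 1.04), Zbp1 (0.92, 1.04) and Tlr3 (0.69, 0.47) lie in the upper right, Trim25 (-0.30, -0.73) lies in the lower left, and Mavs lies near the origin.

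Dim probes as a whole had higher differences than bright ones, which bears on Tlr7, Zbp1, Tlr3, Ifih1, both Dhx58 probes and the Ddx58 probe at base 2635. The median difference of tested probes was 0.35 for mean levels between -7 and -6, with 0.47 on slide 1 and 0.24 on slide 2. It was 0.22 between -5 and -4, 0.00 between 0 and 1, and -0.07 between 3 and 4. With quantile normalization the medians of the same bands were 0.05, 0.02, 0.01 and 0.01. Measured against probes of like brightness, the 2 Ddx58 probes, Dhx58 at base 425, Mavs and Adar lay within 0.05 of the local median. Tlr7, Zbp1 and Tlr3 lay above it, and Ifih1, Trim25, both Eif2ak2 probes and Dhx58 at base 976 lay below it. These medians describe the arrays and carry no test.

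**Figure D3:**
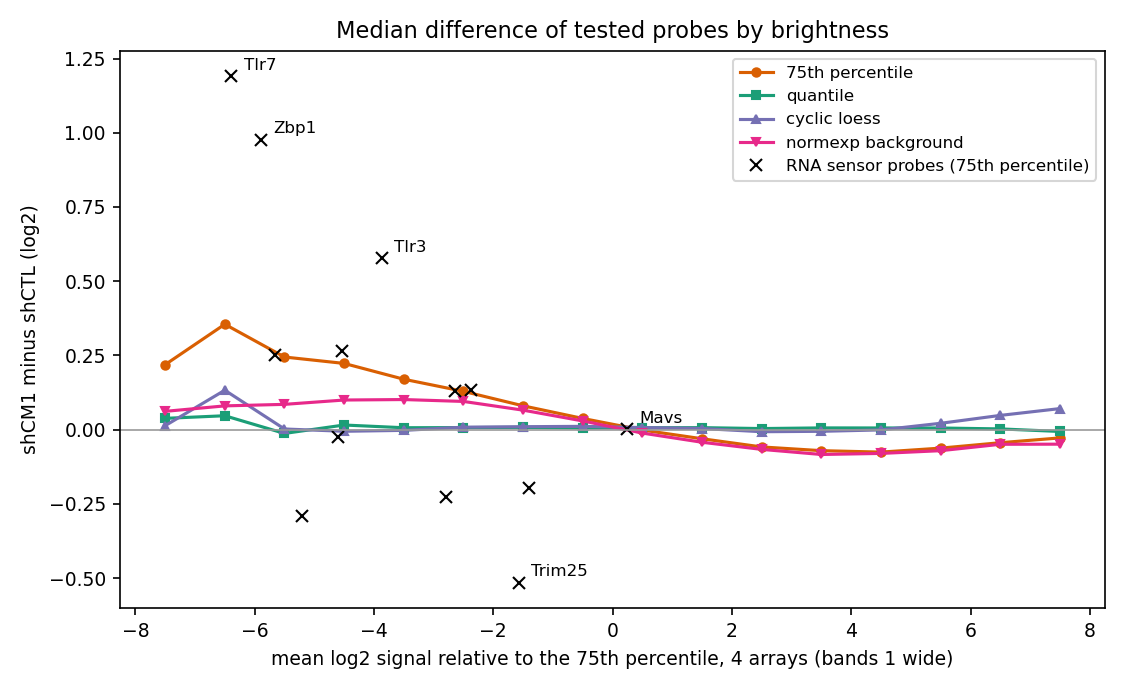
Median difference of shCM1 minus shCTL (vertical, log2) of tested probes in bands of mean level 1 log2 unit wide (horizontal), under 4 scalings drawn as coloured lines, with the RNA sensor probes under 75th percentile scaling as crosses. The orange line reaches 0.35 between -7 and -6 while the quantile line stays near 0, and Tlr7, Zbp1 and Tlr3 lie above both.

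**Figure D4:**
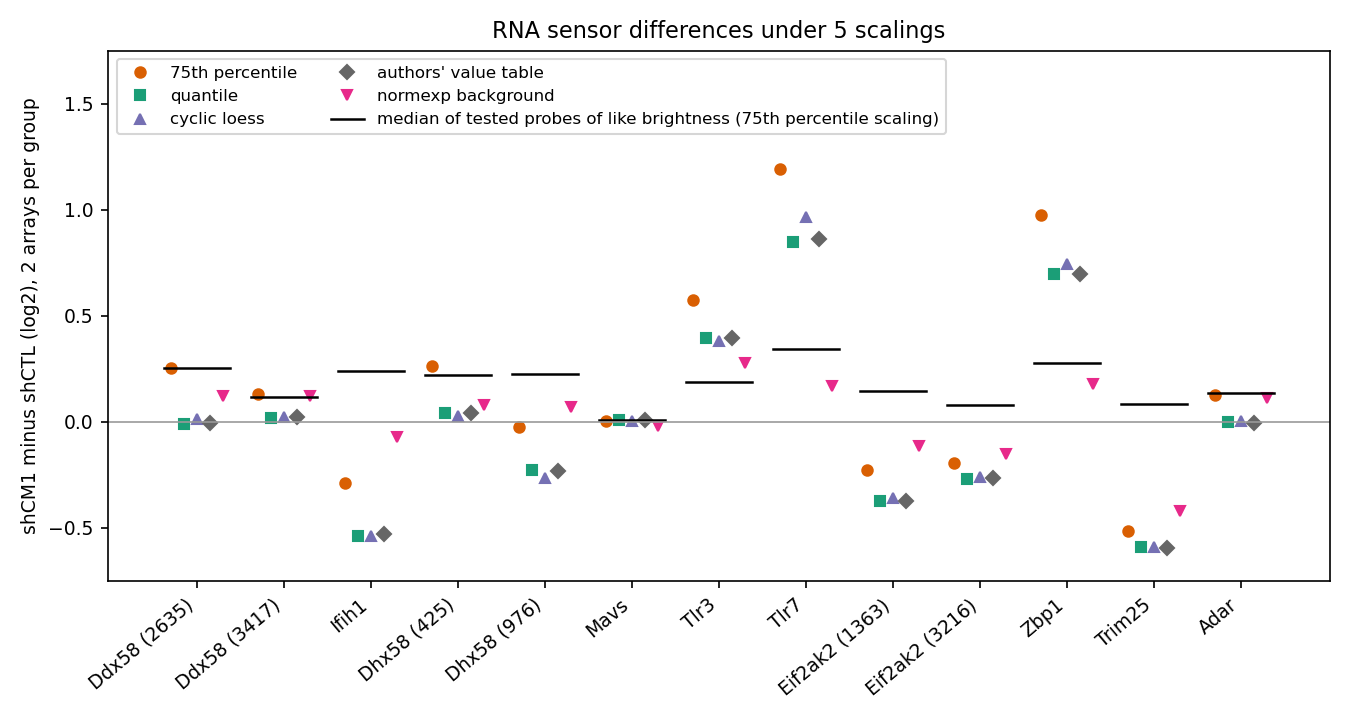
Difference of shCM1 minus shCTL (vertical, log2, 2 arrays per group) of each RNA sensor probe under 5 scalings shown by symbol, with black bars for the median of tested probes of like brightness under 75th percentile scaling. Tlr3, Tlr7 and Zbp1 are above 0 and Ifih1, Trim25 and both Eif2ak2 probes are below 0 under all 5 scalings, while the Tlr7 value drops from 1.19 to 0.17 with normexp.

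Markers of microglia moved with the shCM1 group in the same arrays. Of 26 tested microglia marker probes, 25 were higher within both slides, beside 44.2% of all probes. With the slide as a block 9 were called higher, beside 3.2% of all probes. Their median difference was 0.58, beside 0.08 for all tested probes. Many of these marker probes were dim, and dim probes as a whole had higher differences. The summed signal of all microglia marker probes, in units of the array's 75th percentile, was 13.4 and 13.7 in shCTL and 17.3 and 15.8 in shCM1. Itgam, a defining marker, was not well above background on any array. Fibroblast and pericyte marker probes had a median of 0.49 (3 of 8 called higher and 1 lower), endothelial ones 0.25 (0 of 6 called), oligodendrocyte lineage ones 0.22 (2 of 12 higher and 1 lower), neuronal ones 0.01 (4 of 18 higher and 1 lower) and astrocyte ones -0.07 (0 of 12 called). Of all probes, 3.2% were called higher and 2.69% lower. The part of microglia in the Tlr7, Zbp1 and Tlr3 values was not tested.

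The promoters of 6 of the 10 genes were in a RefSeq promoter table of build GRCr8, which gives 250 bases before and 50 after each start (Ifih1, Mavs, Eif2ak2, Trim25, Tlr3 and Tlr7). The core of the interferon-stimulated response element, read as GAAA, any 2 bases and GAAA, was searched on both strands because several of these genes are known interferon targets. It was found in 2 of the 6, beside 3.92% of 33469 promoters. The Ifih1 match lay 59 bases upstream of the start, in chr3:67684008-67684037 read on the minus strand, and the Eif2ak2 match 16 bases upstream, in chr6:21941128-21941157. The motif is in capitals in both.
Ifih1 promoter: gaagagaatcGAAACAGAAAccgatgtgtg
Eif2ak2 promoter: agtccgccggGAAAACGAAAcagagagaac

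Both genes with the match had negative differences on both slides, -0.29 for Ifih1 and -0.23 and -0.20 for Eif2ak2, and none of these passed the test.

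The wider pathway was read from 10 lists, of which 96 genes were found on the array and 92 tested, through 130 probes. None passed without a block, where 7 had an unadjusted p under 0.05 in limma. With the slide as a block, 8 probes were called higher and 3 lower, beside 3.2% and 2.69% of all probes. The median difference was 0.05 beside 0.08 for all tested probes. Single lists follow in the order of the pathway, and their calls with the slide as a block stand beside the same 3.2% and 2.69%.

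Among RIG-I-like receptor cofactors, 2 of 33 tested probes were called lower with the slide as a block and none was called higher. Within both slides 12 were higher and 12 lower, beside 44.2% and 22.6% of all probes. Ppp1ca, a subunit of the phosphatase that dephosphorylates RIG-I and MDA5, had signals of 19359 and 21072 in shCTL and 11298 and 12543 in shCM1. Its groups were far apart, with a difference of -0.69 (SE 0.14) and an adjusted p of 9.00e-05 from limma with the slide as a block. Mfn2, a mitochondrial fusion protein that binds MAVS, fell by 0.32 at one probe (adjusted p 0.0426 in limma with the slide as a block) and was at -0.12 at its other probe. The Mfn2 call was lost with quantile normalization (adjusted p 0.140 in limma), and without shCM1 replicate 2 the value was -0.20. No probe passed among the 21 tested for adaptors and kinases. In that list the probes of Map3k7 (TAK1) were at 0.20 and 0.28 and Irak1, the kinase behind MyD88, at -0.30 (adjusted p values 0.277, 0.156 and 0.114 in limma with the slide as a block).

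Of 10 probes for the transcription factors that the sensors activate, 1 was called higher with the slide as a block. Jun, a subunit of AP-1, had signals of 3826 and 3731 in shCTL and 4119 and 4888 in shCM1, with no overlap. Its difference was 0.32 (SE 0.16 in the fit without a block). With the slide as a block, limma's adjusted p was 0.0446, and it was 0.0588 with cyclic loess and 0.0734 with normexp. Without shCTL replicate 2 the Jun value was 0.20. None of 14 probes for type I interferons and their receptor passed. Ifnar1, a chain of the receptor, was at 0.28 at one probe and -0.09 at the other. Ifna1 was not well above background on the shCTL array of slide 1 and had signals of 4.38 and 8.97 in shCTL and 9.77 and 12.8 in shCM1.

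In the list of endosomal Toll-like receptor trafficking and processing, 5 of 15 tested probes were called higher with the slide as a block, beside 3.2% of all probes. None was called lower. Within both slides 12 were higher and 3 lower, beside 44.2% and 22.6% of all probes, and the median difference was 0.31. Ctss, a lysosomal protease that trims TLR7 and TLR9, had signals of 6.77 and 11.3 in shCTL and 51.4 and 32.5 in shCM1 at one probe, where it rose by 2.30 (SE 0.45). That shCTL array of slide 1 was not well above background, the differences were 3.05 on slide 1 and 1.54 on slide 2, and with normexp the value was 0.63. Its other probe rose by 0.89, and by 0.54 without shCM1 replicate 1. Cd14, a co-receptor, rose by 1.02 at one probe and was at 0.71 at the other. Ctss and Cd14 are also on the microglia list above. Hsp90b1, the chaperone gp96 that folds Toll-like receptors, rose by 0.47 and 0.29 at its probes, though the second was at 0.06 without shCTL replicate 2 and at 0.11 without shCM1 replicate 1. Limma's adjusted p values with the slide as a block, in the order given, were 0.000544, 0.00520, 0.00148, 0.200, 0.00716 and 0.0447.

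Among PKR activators, inhibitors and related kinases 1 of 10 probes was called lower with the slide as a block. It was Tarbp2 (TRBP, an inhibitor of PKR), with signals of 2278 and 2391 in shCTL and 1613 and 1775 in shCM1 and a difference of -0.39 (SE 0.16). Of 5 probes for ZBP1 cell death partners, 1 was called higher. It was Ripk3, the necroptosis kinase that ZBP1 engages, with signals of 6.47 and 13.2 in shCTL and 24.8 and 19.1 in shCM1. The Ripk3 difference was 1.31 (SE 0.46), from 2.07 on slide 1, where shCTL was not well above background, and 0.56 on slide 2. Of 6 probes for relatives of ADAR, 1 was called higher. It was Adarb2, a brain deaminase homolog without known editing activity, at 0.50 (SE 0.25), and at 0.21 without shCTL replicate 2 and 0.79 without shCTL replicate 1. Limma's adjusted p values with the slide as a block were 0.0225, 0.0420 and 0.0474, and with quantile normalization 0.0565, 0.124 and 0.153, so these 3 calls were lost there.

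No probe passed among 7 tested for the oligoadenylate synthetase and RNase L pathway or among 9 for cytosolic DNA sensing. Oasl, an interferon-induced relative of the synthetases, was well above background on both shCM1 arrays but on neither shCTL array, so it entered the test through shCM1. Under 75th percentile scaling, each shCTL array was set at its lowest level of any probe well above background. Oasl was then 1.72-fold higher in shCM1 (0.78 in log2), with measured mean levels of -6.89 and -5.70. With normexp its measured difference was 0.23, under that value, so it is not a minimum. Abce1, the RNase L inhibitor, was at -0.14 at one probe, from -0.33 and 0.05 on slides that disagreed, and at -0.13 at the other. Over the left-out arrays these ran from -0.44 to 0.15 and from -0.27 to 0.00. Sting1 was at 0.61, from 1.36 and -0.13 on slides that disagreed, and Aim2 at 0.45, from 0.42 and 0.47.

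**Figure D5:**
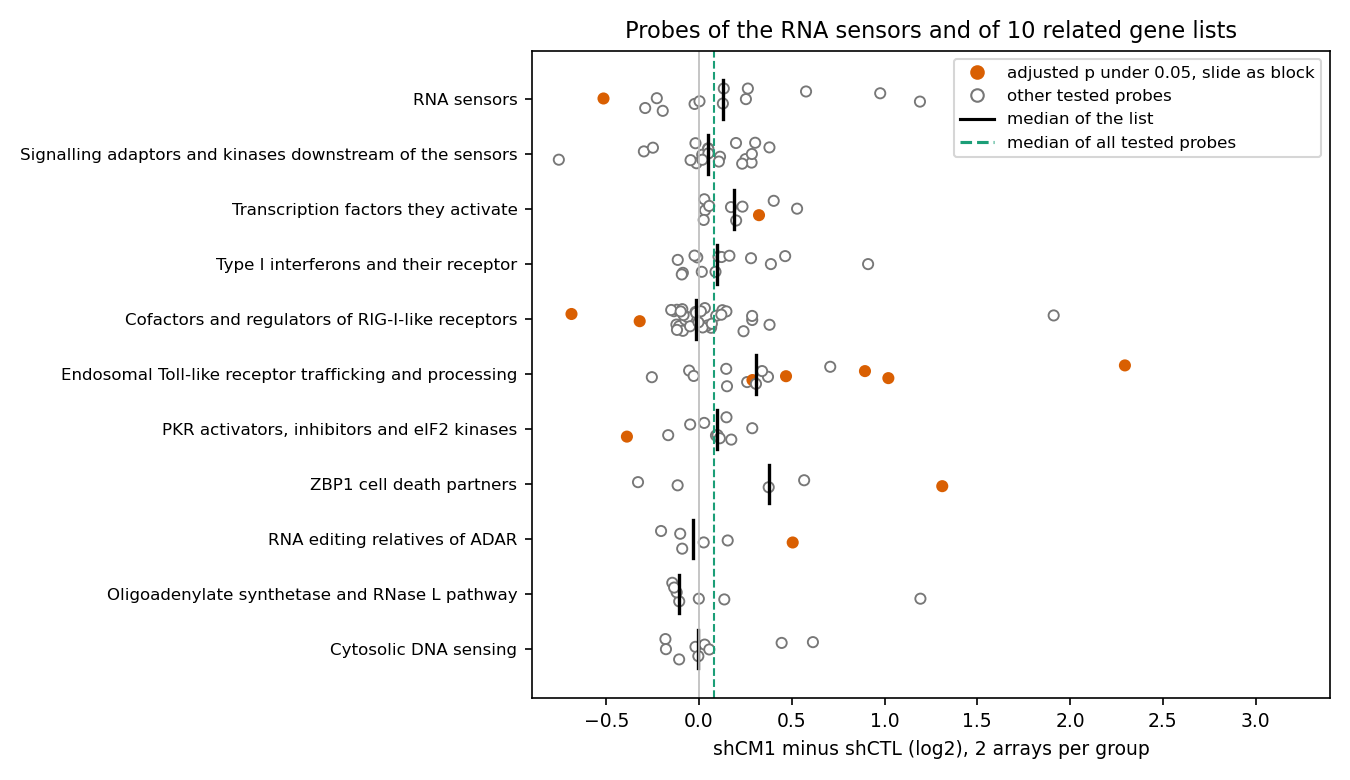
Difference of shCM1 minus shCTL (horizontal, log2, 2 arrays per group) of every tested probe of the RNA sensors and of 10 related gene lists (rows), filled where limma's adjusted p with the slide as a block was under 0.05, with the median of each list as a black bar and that of all tested probes (0.08) as a dashed line. The filled points of endosomal Toll-like receptor trafficking all lie to the right, while those of the RNA sensors (Trim25) and the RIG-I-like receptor cofactors lie to the left.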

How the data were processed

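Processed spot intensity values on a linear scale, background-corrected per the file headers by Agilent Feature Extraction 10.7.3.1, were used for all 4 arrays, which the authors had not scaled between arrays in these files. The authors' deposited value table, also linear intensity, served only as an alternative. No source used here states how that table was made. Outlier spots were left out, spots of a probe averaged, and log2 values set relative to the array's own 75th percentile of all gene probes. The test covered the 36700 probes that at least 2 arrays measured well above background. Groups, taken from the shRNA label because titles write si where the design writes sh, were compared in R 4.3.3 by limma 3.58.1, as a two-sided moderated fit (lmFit, then eBayes with trend), with Benjamini-Hochberg adjustment over probes and a threshold of 0.05. The main test had no block. The slide, the same split as replicate number and scan per the file headers, was also fitted as a block. Deviations of same-numbered arrays correlated at 0.713. The labels do not state whether a slide holds 1 experiment.

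The fit with the block had a variance prior of 14.8 degrees of freedom, so its p-values rest mostly on probes of like brightness. With 2 arrays against 2, an exact permutation test cannot go below 0.33. Precision is limited by the number of arrays. The design text names independent experiments, and no more is said of the cultures. Members, lists and tests were chosen with earlier results of these data known. From each list, genes past either test were named (at most 4), or otherwise the 2 with the smallest p in the block fit. Of the listed genes, 11 were not found by name. The fitting script was tested on simulated data. Alternatives covered scaling, background correction, source of values, filter, probe choice, variance prior, block and leaving out each array.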

Additional observations from a re-analysis of the deposited data

How the results depend on the processing

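Without the slide as a block, no scaling, filter or left-out array gave a limma call, so the counts ran from 0 to 0 over the left-out arrays for all probes, the sensors and the pathway lists. With the replicate block, calls among all probes numbered 2164, and 972 with cyclic loess, 355 with no filter on dim probes, 1422 with normexp, 2135 with only probes well above background on all arrays, 2050 with only the brightest probe per gene, 1353 with quantile normalization, 1108 with the authors' deposited table and 0 without the intensity trend. Pathway probes numbered 11, then 6, 2, 6, 8, 10, 7, 7 and 0 in the same order. The sensor count was 1 (Trim25) with the block alone and with cyclic loess, the stricter filter, the brightest probe, quantile normalization and the authors' table, and 0 otherwise. Of the calls with the block, 1176 were higher and 988 lower, against 545 and 808 with quantile normalization, 369 and 603 with cyclic loess, 635 and 787 with normexp and 429 and 679 with the authors' table. Cmtr1 passed with the block at -1.85, at -1.85 under both filters and the brightest probe, -1.97 with cyclic loess and with quantile normalization, -1.98 with the authors' table and -1.22 with normexp. It did not pass with the block and no intensity trend (adjusted p 0.242), and ranged from -2.07 to -1.64 over the left-out arrays.

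Differences of 5 sensor probes turned direction under an alternative, and the block did not alter the values under another scaling. Against 0.13 in the main setting, Adar was at -0.0021 with quantile normalization and -0.0058 with the authors' table, and Ddx58 at base 2635, at 0.25 in the main setting, was at -0.0085 and -0.0070. With normexp, Dhx58 at base 976 was at 0.0718 and Mavs at -0.0192. Over the left-out arrays Ddx58 at base 3417 ranged from -0.0558 to 0.3226, Dhx58 at base 976 from -0.2001 to 0.1519 and Mavs from -0.0426 to 0.0475. The cause was not tested. A random slide block with an estimated correlation was not run, because 4 arrays left no estimate. Signals near 10, as for Tlr7 and Zbp1, lie close to background and limit what these arrays can show.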

Other observations

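One further pathway gene was picked out after its values were seen. Ddx60, an interferon-induced helicase described as a cofactor of RIG-I, was not well above background on either shCTL array (signals 1.98 and 3.31) and was well above it on both shCM1 arrays (8.79 and 9.52). It therefore entered the test through shCM1, where the lowest signals of any probe well above background were 8.07 and 6.82. Under 75th percentile scaling, each shCTL array was set at its lowest level of any probe well above background. Ddx60 was then 1.23-fold higher in shCM1 (0.30 in log2), with measured mean levels of -8.10 and -6.19. Its measured difference was 1.91, and 0.16 with normexp, which is under the 0.30, so that value is not a minimum. Cmtr2, the methyltransferase of the second transcribed nucleotide, had levels of -1.38 and -1.61 in shCTL and -1.33 and -1.05 in shCM1 at one of its probes. The Cmtr2 arrays did not overlap between groups there, beside 21.8% of all probes apart in this direction. The difference was 0.30 (SE 0.20 in the fit without a block), from 0.05 on slide 1 and 0.56 on slide 2. Its adjusted p from limma with the slide as a block was 0.188. The other Cmtr2 probe was also at 0.30, from 0.07 and 0.52 on the slides, with an adjusted p of 0.305 in the same fit.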
